A study of Mus musculus with 7 samples.

Results

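The 9 genes described here are known targets of the glucocorticoid receptor, together with the receptor itself and the enzyme that supplies it with ligand. They were taken by name from the table of 55401 genes (Fkbp5, Tsc22d3, Zbtb16, Sgk1, Klf9, Errfi1, Ddit4, Nr3c1 and Hsd11b1), and all 9 passed the filter on low counts that left 17465 genes for testing. Glucocorticoids are adrenal steroid hormones (corticosterone in mice) that are secreted in a daily rhythm and in response to stress. In the cell they bind the glucocorticoid receptor, which leaves its chaperones, enters the nucleus and binds DNA, raising some genes and repressing many inflammatory genes. In the lung the hormone drives maturation of the alveolar epithelium and salt and water uptake, and synthetic glucocorticoids are used against inflammation of the airways.

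The right lung lobes of male C57BL/6 mice, 6 to 8 weeks old, were sequenced after a single instillation of bleomycin, an antitumour antibiotic whose toxicity to lung tissue ends in scarring. Both groups therefore carried the injury, and no uninjured lung was analysed here. Of the 7 mice, 4 were kept without oxygen pressurization (BLM) and 3 received hyperbaric oxygen (BLM+HBO), 90 min daily at 2.5 ATA on 14 days starting with day 7. All lungs were taken on day 21. Sample records place the BLM mice in the chamber too, while the study's methods leave them untreated, and the hour of collection was not given in the sources used here.

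The libraries held between 18157161 and 26365969 counts. The groups did not separate fully, since BLM+HBO 2 lay next to the BLM mice on the first principal component (-0.996, with BLM mice from -47.6 to -6.08 and the other BLM+HBO mice at 37.8 and 54.8). The lung markers Sftpc and Pecam1 were abundant in every mouse, at 4549 CPM (counts scaled to library size) or more and 470.8 CPM or more. Heart muscle genes were also detected. Their summed level ranged from 54.6 to 161 CPM in BLM and from 137 to 566 CPM in BLM+HBO, and 5 of the 6 genes were called higher in BLM+HBO, where 3.4% of all genes were. Without BLM+HBO 1 the count was 2. Their part in the results below was not tested.

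On GRCm38, Fkbp5 lies on the minus strand of chromosome 17 from 28399094 to 28517527, Tsc22d3 on the minus strand of chromosome X from 140539528 to 140600659, and Sgk1 on the plus strand of chromosome 10 from 21882184 to 21999903. The others lie on chromosomes 9 (Zbtb16), 19 (Klf9), 4 (Errfi1), 10 (Ddit4), 18 (Nr3c1) and 1 (Hsd11b1). No exon base of any of the 9 is shared with an exon of another gene in GENCODE vM21, so no read in their exons also fell in an exon of an annotated neighbour. Promoter windows of the RefSeq annotation, reaching 250 bases before and 50 bases after a transcription start, were available for 7 of the 9 genes, in 15 windows. They were searched on both strands for the glucocorticoid response element (the arms AGAACA and TGTTCT, 3 bases apart), its single arm AGAACA, the clock motif CACGTG (E-box), the hypoxia core ACGTG, which the E-box contains, and the D-box TTATGTAA. The full element occurred in 3 of 32851 windows (0.00913%), and 1 of these was the window of an Sgk1 start on chromosome 10. The single arm occurred in 19% of all windows and in 4 of the 15 windows, which were 3 of Sgk1 and 1 of Tsc22d3. The E-box occurred in 7.15% of all windows and in 2 of the 15, 1 of Sgk1 and 1 of Fkbp5. The hypoxia core occurred in 19.6% of all windows and in 5 of the 15, and the D-box in 0.938% and in 0. The windows below are shown because they hold the element, its arm or the E-box in the genes whose levels are compared most closely. Capitals mark these motifs, and each window reads 5′ to 3′ along the gene.
Sgk1, chr10:21993640-21993939, plus strand, GRCm38.p6: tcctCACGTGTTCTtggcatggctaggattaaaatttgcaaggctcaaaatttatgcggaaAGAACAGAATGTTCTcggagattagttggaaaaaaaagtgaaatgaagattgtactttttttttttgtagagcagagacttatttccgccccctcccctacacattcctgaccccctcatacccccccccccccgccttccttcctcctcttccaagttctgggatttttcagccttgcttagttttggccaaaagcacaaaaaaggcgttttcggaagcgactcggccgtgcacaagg
Fkbp5, chr17:28486100-28486399, minus strand, GRCm38.p6: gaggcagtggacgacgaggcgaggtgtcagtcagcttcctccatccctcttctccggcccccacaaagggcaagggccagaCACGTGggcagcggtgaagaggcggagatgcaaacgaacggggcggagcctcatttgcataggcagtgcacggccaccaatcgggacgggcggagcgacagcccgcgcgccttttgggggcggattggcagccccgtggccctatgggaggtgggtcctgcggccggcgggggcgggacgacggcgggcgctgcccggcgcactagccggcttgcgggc
Tsc22d3, chrX:140600473-140600772, minus strand, GRCm38.p6: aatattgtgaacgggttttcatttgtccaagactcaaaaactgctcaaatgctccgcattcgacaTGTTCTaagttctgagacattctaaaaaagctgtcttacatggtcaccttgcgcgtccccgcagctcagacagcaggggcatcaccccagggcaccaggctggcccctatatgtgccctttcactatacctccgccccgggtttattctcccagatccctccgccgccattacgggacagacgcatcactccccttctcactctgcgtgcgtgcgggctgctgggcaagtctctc
In the Sgk1 window the element begins 189 bases before the start, and a further arm at 242 bases before it overlaps the E-box at 246 bases by its leading bases. The Sgk1 gene has 6 such windows, and the counts are per gene, so they do not tell which start was used. Only exact matches inside the windows were searched, so the counts do not show that a gene lacks the element. For 11 of the 15 windows, the 30 bases after the start were found in a transcript of the gene. A match of letters is a description of the window, not of binding.

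Between genes, levels were compared as RPKM, read counts scaled to exon length and library size. Errfi1 was the most abundant over the 7 mice (mean 61.0 RPKM, range 39.3 to 88.7), followed by Sgk1 (55.4, range 35.4 to 68.9), Ddit4 (53.3, range 25.2 to 77.9) and Tsc22d3 (52.7, range 35.4 to 99.8). Hsd11b1 (37.8, range 30.2 to 43.7) and Klf9 (26.7, range 21.0 to 38.4) came next. The receptor gene Nr3c1 had 18.6 RPKM (range 13.5 to 25.4), Fkbp5 8.49 (range 3.37 to 16.2) and Zbtb16 3.28 (range 0.696 to 6.96). Each gene's range overlapped that of its neighbour in this order, though in every mouse Klf9 lay above Nr3c1 and Nr3c1 above Fkbp5. The other neighbours did not keep their order in every mouse. Among all tested genes, Errfi1 stood at percentile 95.4 and Zbtb16 at percentile 41.2.

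A gene was called when its P before adjustment was under 0.05 and its fold change over 1.5 in either direction, the study's thresholds. By these, edgeR's quasi-likelihood test called 1 of the 9 genes (11.1%), Fkbp5, lower in BLM+HBO. Over all tested genes 6.29% were called, 3.4% higher and 2.89% lower. DESeq2 called 6.72% of all genes and none of the 9, and limma-trend called 6.68% and Fkbp5 alone of the 9. After Benjamini-Hochberg adjustment over all genes, none of the 9 passed 0.05, and the same was true of every gene in the table by edgeR (0 genes, with 1861, or 10.7%, at an unadjusted P below 0.05). By DESeq2 123 genes (0.704%) passed after adjustment, and none of the 9. The median log2 fold change of the 9 genes was 0.02, against 0.007 over all tested genes, with 5 genes above 0 and 4 below (51.2% and 48.8% of all genes). For none of the 9 were the groups without overlap, while 8.77% of all tested genes had groups that did not overlap, 4.05% higher and 4.72% lower in BLM+HBO. Fold changes are given below as log2FC, the log2 of BLM+HBO over BLM from edgeR, with the standard error (SE) of the fit. In bulk tissue, a change in the number of cells that express a gene and a change within those cells cannot be told apart.

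**Figure D1:**
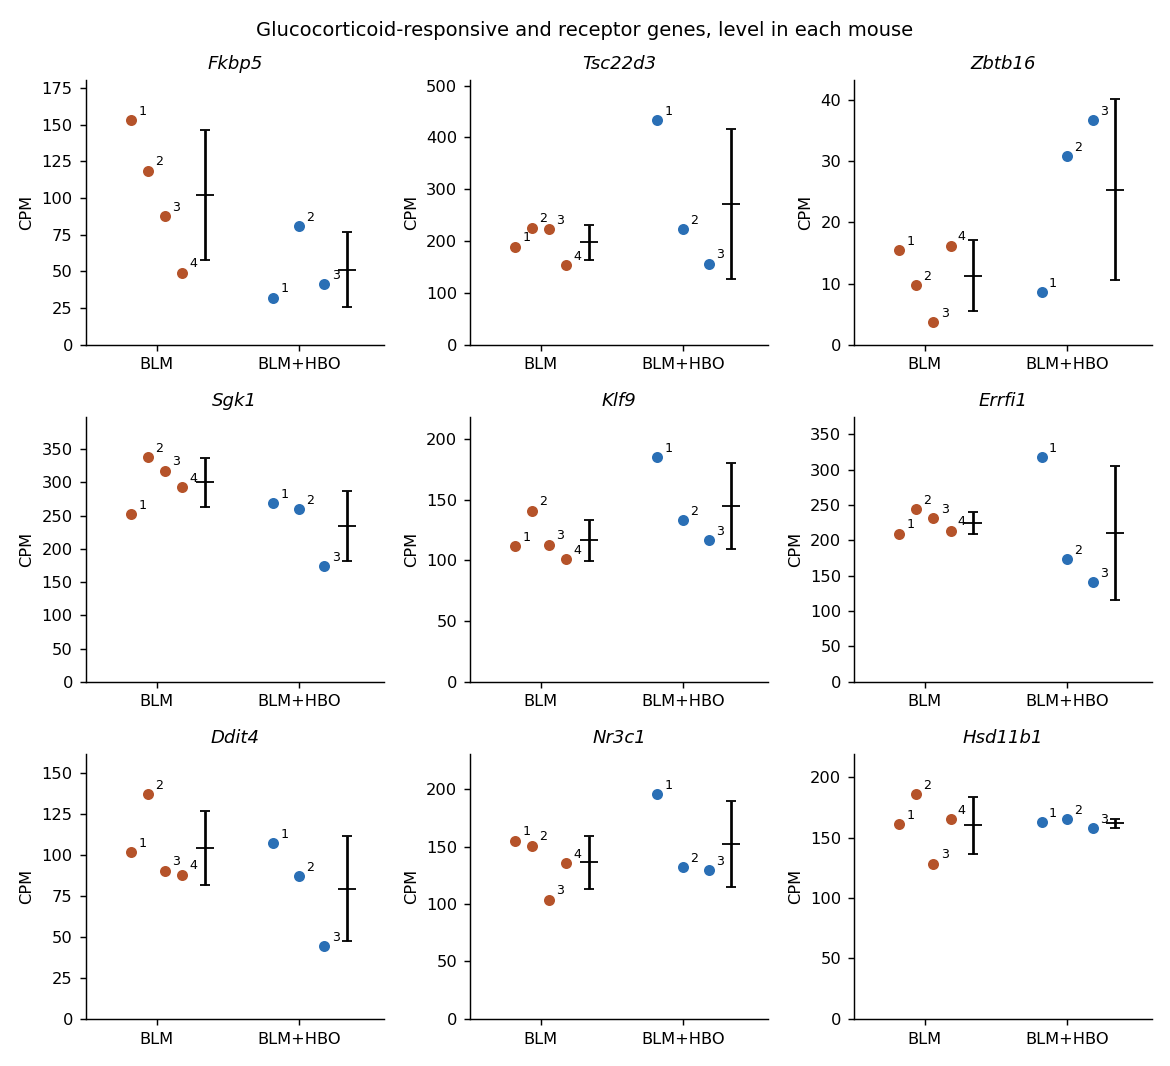
Level of each of the 9 genes in CPM (y axis from 0) in each mouse, with BLM mice in orange and BLM+HBO mice in blue and the mouse number beside each point. The black bar gives the group mean and its SD (n = 4 and n = 3), and for every gene the ranges of the groups overlap.

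Fkbp5 encodes FKBP51, a co-chaperone that lowers the receptor's affinity for hormone and is itself induced by the receptor, closing a short feedback loop. Its level was 153, 119, 87.6 and 49.2 CPM in BLM 1 to BLM 4 and 31.9, 80.7 and 41.3 CPM in BLM+HBO 1 to BLM+HBO 3. BLM 4 fell among the BLM+HBO mice, and BLM+HBO 2 lay near BLM 3. The mean level was 102 ± 44.3 CPM (SD, n = 4) in BLM against 51.3 ± 25.9 CPM (SD, n = 3), and the log2FC was -0.99 ± 0.40 (95% interval -1.89 to -0.10, edgeR adjusted P = 0.4425). DESeq2 gave nearly the same log2FC (-0.996) with an unadjusted P of 0.0522, just past the threshold, and neither it nor an exact permutation test called the gene (35 assignments of the mice, two-sided, P = 0.114, where 0.0286 is the smallest possible). The call was also lost when single mice were left out, with a log2FC for the set lacking BLM 1 (-0.73), BLM 2 (-0.92), BLM+HBO 1 (-0.75) or BLM+HBO 3 (-0.86), while without BLM+HBO 2 it was -1.48 (edgeR adjusted P = 0.0932). Over the alternatives the adjusted P ranged from 0.0319, in the edgeR fit without a filter on low counts, to 0.802, without BLM+HBO 1.

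Tsc22d3 encodes GILZ, a leucine zipper protein induced by the receptor that restrains NF-κB and AP-1. It had 189, 225, 223 and 154 CPM in the BLM mice and 433, 223 and 156 CPM in the BLM+HBO mice. BLM+HBO 1 stood far above every other mouse, and the other BLM+HBO mice lay within the BLM range. The log2FC of 0.45 ± 0.30 (95% interval -0.22 to 1.12) did not pass the test (edgeR adjusted P = 0.612). Leaving out BLM+HBO 1 turned it to -0.06, and leaving out BLM+HBO 3 raised it to 0.72, past both thresholds. The ratio of Tsc22d3 to Fkbp5 CPM was 13.6 in BLM+HBO 1 and between 1.23 and 3.78 in the other 6 mice.

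Zbtb16 encodes PLZF, a zinc finger transcription factor that glucocorticoids induce in several cell types and that also marks natural killer T cells. It was the least abundant of the 9 and the most variable, with 15.4, 9.75, 3.68 and 16.2 CPM in BLM and 8.57, 30.8 and 36.8 CPM in BLM+HBO. BLM+HBO 2 and BLM+HBO 3 lay above all BLM mice, and BLM+HBO 1 lay below 3 of the 4. The highest mouse had 9.99 times the level of the lowest. The log2FC of 1.17 ± 0.53 (95% interval -0.01 to 2.36) was the largest of the 9 in size and was not called (edgeR adjusted P = 0.471, exact permutation P = 0.257). The gene was called with upper-quartile normalization (1.202), with no filter on low counts (1.167), and when BLM 1 (1.362), BLM 4 (1.404) or BLM+HBO 1 (1.583) was left out. The T cell marker list, which such cells share, summed to between 34.9 and 53.0 CPM in BLM and between 38.5 and 90.7 CPM in BLM+HBO. Of its 6 markers, 1 was called higher (Trbc2), which is 16.7% against 3.4% of all genes. Leaving out BLM+HBO 1 gave 0 such markers, and leaving out BLM+HBO 3 gave 4. Trbc2 was highest in BLM+HBO 1 (26.6 CPM), the BLM+HBO mouse with the least Zbtb16. The part of T cells in the level of Zbtb16 was not tested.

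Sgk1 encodes a kinase that raises sodium uptake through the epithelial sodium channel. It had 252, 338, 317 and 293 CPM in BLM and 268, 260 and 174 CPM in BLM+HBO. The groups overlapped through BLM 1 alone, and BLM+HBO 3 was the lowest mouse. The mean was 299.9 ± 36.8 CPM (SD, n = 4) in BLM against 234 ± 52.3 CPM (SD, n = 3), and the log2FC was -0.36 ± 0.17 (95% interval -0.74 to 0.02, edgeR adjusted P = 0.494). In DESeq2 the unadjusted P was below 0.05 but the fold was under 1.5, so neither tool called the gene. Scnn1a, the channel subunit that glucocorticoids induce, had 615, 690.7, 606 and 579.9 CPM in BLM and 409, 486 and 571 CPM in BLM+HBO, so that all BLM+HBO mice lay below all BLM mice. Its log2FC was -0.35 ± 0.14 (SE; edgeR adjusted P = 0.445), also under the fold limit. Scnn1a was chosen after its values were seen.

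Klf9 encodes a Krüppel-like factor that is a direct target of the receptor and also cycles with the clock. It had 112, 141, 113 and 101 CPM in BLM and 185, 133 and 117 CPM in BLM+HBO. BLM+HBO 1 was the highest mouse, and BLM 2 lay above the other BLM+HBO mice. The log2FC was 0.31 ± 0.17 (95% interval -0.07 to 0.70, edgeR adjusted P = 0.5435), and 0.10 if BLM+HBO 1 was left out.

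Errfi1 encodes MIG6, an inhibitor of the EGF receptor. It was the steadiest of the 9 in BLM, at 210, 244, 232 and 214 CPM (coefficient of variation 7.10%), and spread widely in BLM+HBO, at 318, 173 and 141 CPM (44.7%). The BLM+HBO mice lay on either side of the BLM range, with none inside it. The log2FC was -0.095 ± 0.24 (95% interval -0.63 to 0.44, edgeR adjusted P = 0.918), with 0.12 when BLM+HBO 3 was left out. Without BLM+HBO 1 it was -0.52, with an unadjusted edgeR P below 0.05 and a fold under the limit. A difference in the mean was therefore not detectable, and the interval allowed a fold between 0.645 and 1.36.

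Ddit4 encodes REDD1, an inhibitor of mTORC1 that responds to glucocorticoids and also to hypoxia. It had 102, 137, 90.4 and 88.0 CPM in BLM and 107, 87.1 and 44.2 CPM in BLM+HBO. BLM+HBO 3 was the lowest mouse and BLM+HBO 1 the second highest after BLM 2. The log2FC was -0.39 ± 0.27 (95% interval -1.0 to 0.22, edgeR adjusted P = 0.625). It shrank to -0.11 if BLM+HBO 3 was left out, and leaving out BLM+HBO 1 took it to -0.67, past both thresholds.

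Nr3c1 encodes the glucocorticoid receptor. It had 155, 151, 104 and 135 CPM in BLM and 195, 132 and 129 CPM in BLM+HBO, with BLM+HBO 1 highest and the other BLM+HBO mice inside the BLM range. The log2FC was 0.16 ± 0.18 (95% interval -0.25 to 0.57, edgeR adjusted P = 0.783), and -0.06 if BLM+HBO 1 was left out. Hsd11b1 encodes the reductase that regenerates active corticosterone inside the cell. It had 161, 186, 128 and 165 CPM in BLM and 163, 165 and 158 CPM in BLM+HBO, and all BLM+HBO mice lay inside the BLM range. Its log2FC was 0.016 ± 0.13 (95% interval -0.27 to 0.31, edgeR adjusted P = 0.977), the narrowest interval of the 9, which allowed a fold between 0.827 and 1.24.

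**Figure D2:**
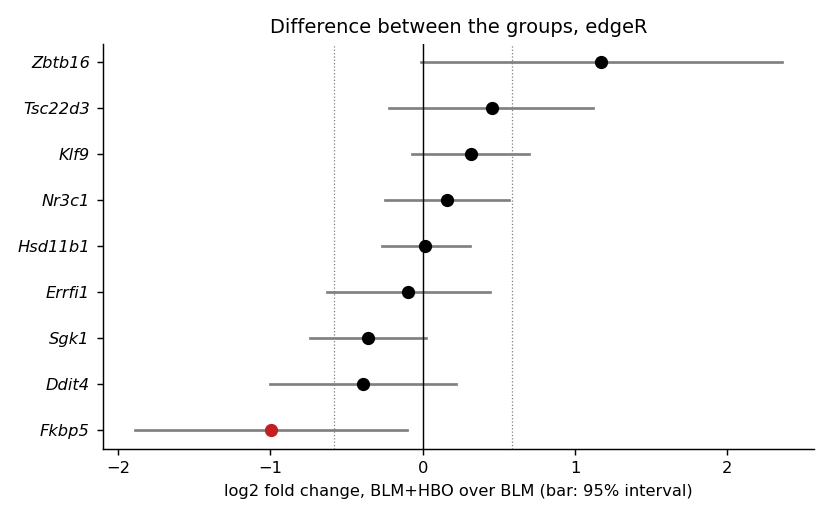
Log2 fold change of each gene, BLM+HBO over BLM (x axis), as a point with its 95% interval, sorted by size, with dotted lines at a fold of 1.5 in each direction. Fkbp5, in red at -0.99, is the single gene called, and the interval of every other gene includes 0.

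The genes did not follow a single order over the mice. BLM+HBO 1 was the highest of the 7 mice for 4 genes (Tsc22d3, Klf9, Errfi1 and Nr3c1) and the lowest for Fkbp5. BLM+HBO 3 was the lowest for Sgk1, Errfi1 and Ddit4 and the highest for Zbtb16. BLM+HBO 2 was neither highest nor lowest for any. Summed over the 9 genes, BLM+HBO held both extremes, 1709 CPM in BLM+HBO 1 and 996 CPM in BLM+HBO 3, with BLM between 1215 and 1549 CPM. The SD of log2 CPM was larger in BLM+HBO than in BLM for 7 of the 9 genes, against 48.4% of all tested genes.

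**Figure D3:**
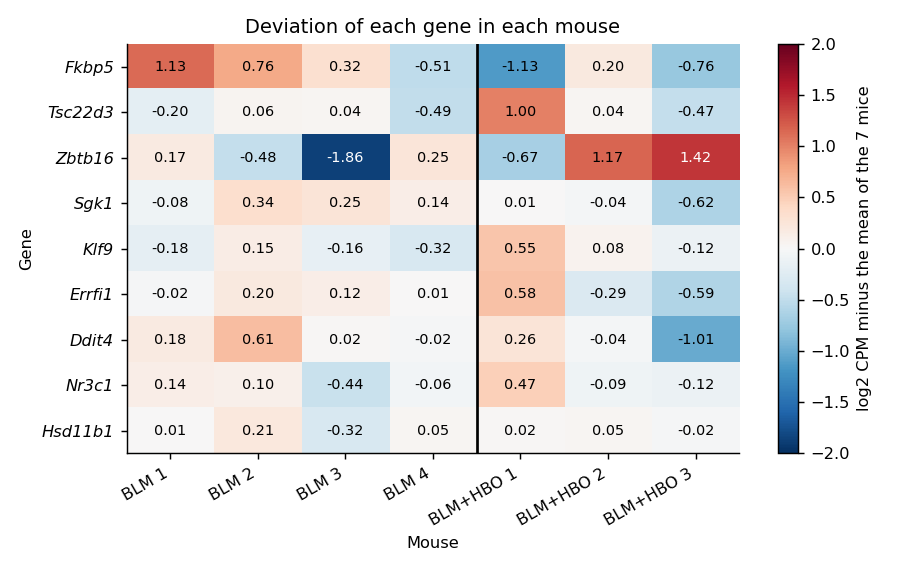
Log2 CPM of each gene (rows) in each mouse (columns) minus the gene's mean over the 7 mice, red above and blue below, with BLM left and BLM+HBO right of the line. In BLM+HBO 1, Tsc22d3 is at 1.004 and Fkbp5 at -1.13, and in BLM+HBO 3 Ddit4 is at -1.01 and Zbtb16 at 1.42.

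As a description over 7 mice, the genes nearest in pattern were found by Pearson's r of log2 CPM, picked as the highest of 17465 genes. Among the 9, Tsc22d3 and Klf9 had the highest r (0.92, and 0.92 on deviations from the group means), followed by Sgk1 and Ddit4 (0.88 and 0.84). On deviations from the group means, Tsc22d3 and Errfi1 were the closest pair (0.96, and 0.77 over all mice). BLM+HBO 1 was the highest of the 7 mice for Tsc22d3, Klf9 and Errfi1, and r without that mouse was not computed. Fkbp5 reached no more than 0.47 with any of the others (Ddit4). Outside the 9, Cd163 was among the genes most like Fkbp5 (r = 0.99), but 354 genes had an r above 0.9 with Fkbp5. The genes most like the other members were Arl4a for Tsc22d3 (0.97), Gm13421 for Zbtb16 (0.96), Hist1h4i for Sgk1 (0.99), Casp6 for Klf9 (0.98), Dazap2 for Errfi1 (0.98), Dcaf5 for Ddit4 (0.99), Il6ra for Nr3c1 (0.99) and Rasl12 for Hsd11b1 (0.98).

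Cd163, the hemoglobin scavenger receptor of macrophages, is itself induced by glucocorticoids. It had 50.9, 43.9, 25.8 and 14.5 CPM in BLM and 5.64, 20.2 and 9.71 CPM in BLM+HBO. These values have the same order over the mice as those of Fkbp5. The first principal component of all genes (37.3% of the variance) also gave that order, apart from BLM 4 and BLM+HBO 2. The order was therefore not particular to these 2 genes. Its log2FC was -1.51 ± 0.49 (edgeR adjusted P = 0.423). The macrophage and monocyte markers summed to 623 to 842 CPM in BLM and 416 to 596 CPM in BLM+HBO. Of these 6 genes, 3 were called lower (50%, against 2.89% of all genes), Adgre1 (log2FC -0.65), Mrc1 (-0.84) and Marco (-2.06). Another 3 were not called, Cd68 (-0.54), Csf1r (-0.23) and the monocyte gene Ly6c2 (0.47), which was highest in BLM+HBO 1 at 61.3 CPM. The count of lower genes was 2 without BLM 1, BLM+HBO 1 or BLM+HBO 3. Mrc1 was 321 CPM in BLM 1, 171 in BLM 4 and 172 in BLM+HBO 2, while Cd68 was between 116 and 137 CPM in BLM and between 70.3 and 110 CPM in BLM+HBO. The part of macrophage number in the level of Fkbp5 was not tested. The fibroblast markers summed to 5870 to 9680 CPM in BLM and 1879 to 6311 CPM in BLM+HBO, and 4 of 5 (80%) were called lower. That count rested on single mice, being 0 without BLM 1 or BLM+HBO 3, 1 without BLM+HBO 1 and 2 without BLM 2.

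A wider list of 28 glucocorticoid-induced genes, chosen with earlier results of these data known, held 5 called genes (17.9%), all lower in BLM+HBO, where 2.89% of all genes were called lower. None was called higher, and 23 were not called. The median log2 fold change was -0.17, with 10 of the 28 genes above 0 and 18 below (51.2% and 48.8% of all genes). The called genes were Angptl4, a lipoprotein lipase inhibitor that also responds to hypoxia and fatty acids, Cd163, the metallothioneins Mt1 and Mt2, and Il1r2, the decoy receptor for interleukin 1. Angptl4 had 68.8, 63.7, 86.9 and 98.2 CPM in BLM and 39.5, 60.1 and 47.5 CPM in BLM+HBO, a log2FC of -0.70 ± 0.19 (edgeR adjusted P = 0.423). Il1r2 had 6.17, 5.97, 4.12 and 5.16 CPM in BLM and 2.72, 3.97 and 1.46 CPM in BLM+HBO, a log2FC of -0.98 ± 0.35 (edgeR adjusted P = 0.423). For both, all BLM+HBO mice lay below all BLM mice. Mt2, the fifth by P, was named after its values were seen. It was scarce, with at most 69 counts in a mouse, and its groups overlapped. Its level was 3.8, 3.21, 1.37 and 0.579 CPM in BLM and 0.373, 0.526 and 1.125 CPM in BLM+HBO, a log2FC of -1.69 ± 0.66 (edgeR adjusted P = 0.4397). Mt1 had a log2FC of -0.83 ± 0.27 (edgeR adjusted P = 0.423), and its groups overlapped. The count of lower genes fell to 3 when either BLM+HBO 1 or BLM+HBO 3 was left out. Higher genes numbered 1 with DESeq2, limma-trend or upper-quartile normalization, and without BLM 2 or BLM 3. They numbered 2 with no filter on low counts, and without BLM+HBO 2 or BLM+HBO 3.

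Of 16 inflammatory genes that glucocorticoids repress, 2 were called lower (12.5%) and 1 higher (6.25%), where 2.89% and 3.4% of all genes were. The median log2 fold change was -0.33, and 13 genes were not called. Ccl2, the main chemokine for monocytes, had 60.8, 45.9, 34.2 and 37.2 CPM in BLM and 3.41, 23.2 and 5.51 CPM in BLM+HBO, a log2FC of -2.06 ± 0.56 (edgeR adjusted P = 0.423). Every BLM+HBO mouse lay below every BLM mouse. Cxcl1, which attracts neutrophils, had a log2FC of -1.66 ± 0.57 (edgeR adjusted P = 0.423) with overlapping groups. Ccl5, a T cell chemokine, went the other way (log2FC 1.49 ± 0.50, edgeR adjusted P = 0.423), with 55.8 CPM in BLM+HBO 1 against 17.4 and 14.1 in the other BLM+HBO mice and 6.77 to 18.4 in BLM. The list had 5 lower genes without BLM+HBO 2, 1 without BLM+HBO 3, and no higher gene without BLM+HBO 1. Over all genes, 968 of 17879 were called lower without BLM+HBO 2.

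Genes around the receptor were examined next. Of 10 receptor chaperones none was called, with a median log2 fold change of 0.00. Fkbp4 encodes FKBP52, the counterpart of FKBP51 that favours hormone binding and transport to the nucleus. It had 84.1, 115, 109.8 and 116 CPM in BLM and 125, 123 and 154 CPM in BLM+HBO. All BLM+HBO mice lay above all BLM mice, yet the log2FC of 0.33 ± 0.14 (edgeR adjusted P = 0.455) was under the fold limit. Of 10 receptor coregulators none was called, and Med1 had the smallest P (log2FC 0.20 ± 0.12, edgeR adjusted P = 0.572). Of 10 tested genes for other steroid receptors and steroid handling, 1 was called higher (10%, against 3.4% of all genes). This was the estrogen receptor gene Esr2, at 2.203 ± 0.419 CPM (SD, n = 4) and 3.57 ± 0.975 CPM (SD, n = 3). Its log2FC was 0.69 ± 0.29 (edgeR adjusted P = 0.459). The Esr2 call was lost in 7 of 15 alternatives, among them without BLM+HBO 1 (0.475). The list held 0 called genes without BLM 3 or BLM+HBO 1 and 3, all higher, without BLM+HBO 2, where 946 of 17879 genes were called higher.

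**Figure D4:**
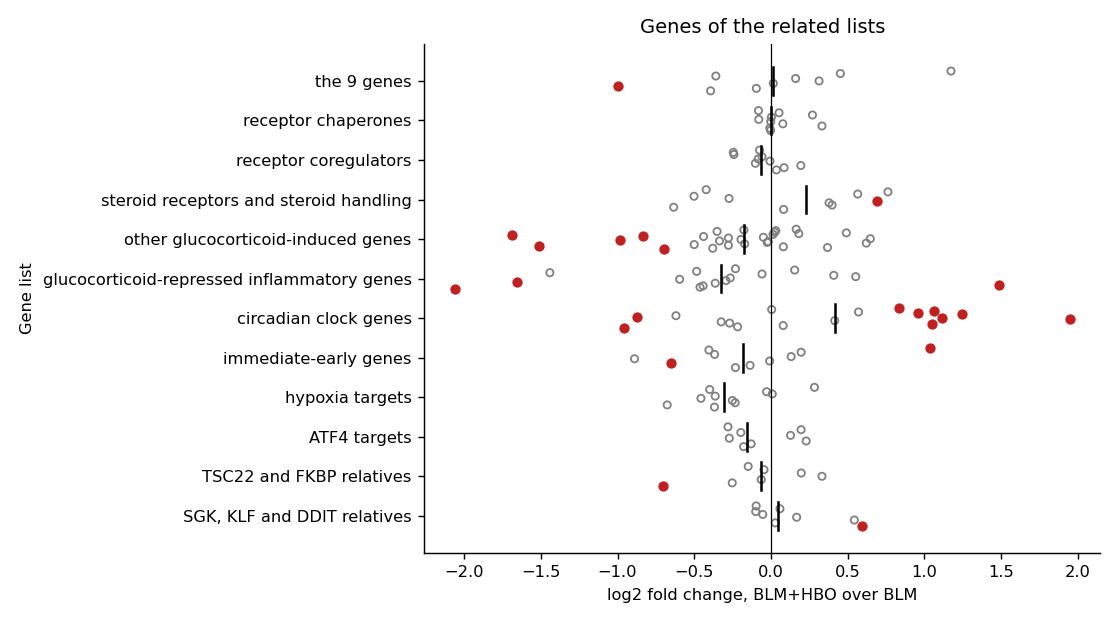
Log2 fold change, BLM+HBO over BLM (x axis), of each tested gene in the 9 genes and 11 related lists (y axis), with genes past both thresholds in red, others as open circles and the list median as a black bar. The clock genes hold 9 of the called genes, 7 to the right of 0 and 2 to the left, and the wider glucocorticoid-induced list holds 5, all to the left.

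Since the hormone and several of the 9 genes follow a daily rhythm, clock genes were set beside them. Of 17 clock genes, 7 were called higher (41.2%) and 2 lower (11.8%), where 3.4% and 2.89% of all genes were. Dbp, a clock output factor, had 25.7, 24.3, 15.5 and 5.58 CPM in BLM and 117, 50.1 and 39.2 CPM in BLM+HBO. Nr1d1, the REV-ERBα repressor, averaged 44.8 ± 16.9 CPM (SD, n = 4) in BLM against 106 ± 13.2 CPM (SD, n = 3), a log2FC of 1.25 ± 0.26 (edgeR adjusted P = 0.423, DESeq2 adjusted P = 0.00525). The log2FC of Tef was 0.84 ± 0.20 and that of Per3 1.06 ± 0.26. For each of these 4 genes all BLM+HBO mice lay above all BLM mice, and BLM+HBO 1 was highest for Dbp, Tef and Per3, as it was for Tsc22d3 and Klf9. Without BLM+HBO 1 the number of higher clock genes was 4. Per1, which both the clock and the receptor induce, had a log2FC of 0.49 ± 0.26 (edgeR adjusted P = 0.530) and was not called; it was named after its values were seen. The part of the clock in the levels of the 9 genes was not tested.

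**Figure D5:**
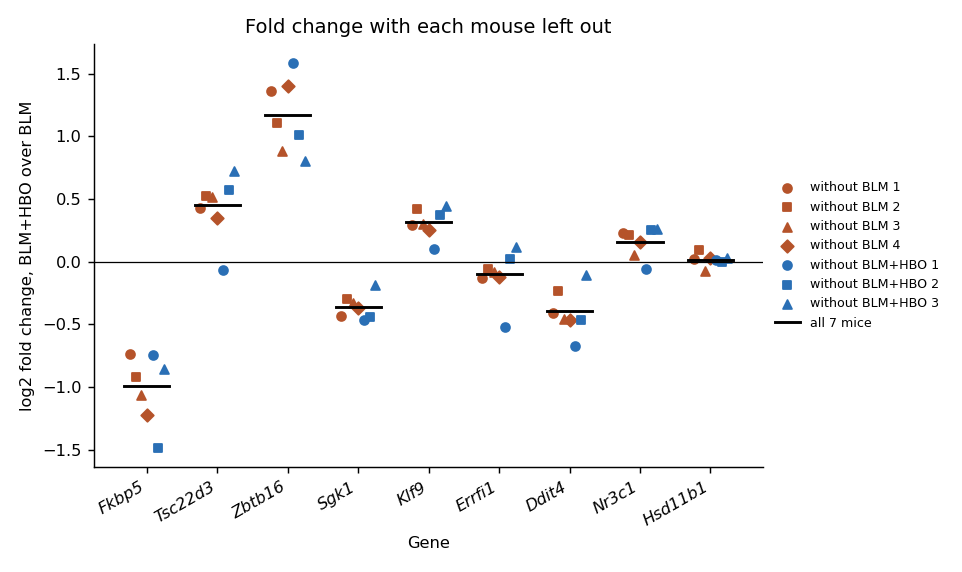
Log2 fold change of each of the 9 genes (y axis) with all 7 mice (black line) and with each mouse left out, orange marks for BLM mice and blue marks for BLM+HBO mice. Fkbp5 stays between -1.48 and -0.73 and Zbtb16 between 0.81 and 1.58, while Tsc22d3 falls to -0.06 without BLM+HBO 1.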

How the data were processed

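The study's methods give read trimming (Trim Galore), alignment to GRCm38 (Hisat2) and gene counting by the authors (featureCounts, default options, so without regard to strand and without multimapping reads). The deposited values are these raw counts, not normalized, with the gene length in bases. The sources used here do not name the annotation release, and symbols were taken from GENCODE vM21 (55141 of 55401 genes matched). Counts summed to between 18157161 and 26365969 per mouse.

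Each mouse was 1 replicate, and no pair of libraries of a group agreed within sampling noise (mean chi-square 22.1 or more per gene where the pair held 20 or more counts). Low-count genes were removed by filterByExpr (at least 10 counts, 15 in total), and the rest were normalized by TMM and tested with edgeR 4.0.16 (quasi-likelihood, BLM as reference) under R 4.3.3. The 95% intervals came from the quasi-likelihood standard error. Log2 CPM used a prior count of 2. DESeq2 1.42.0 and limma-trend (limma 3.58.1) were alternatives, beside other normalizations and filters, a replicate block and leaving out each mouse. The exact permutation test was added after the data were seen. The tests were tested on simulated data. Replicate numbers were not taken to pair the mice: deviations of same-numbered mice correlated at -0.008, -0.066 and 0.161.

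The members, the gene lists and the rule for naming genes were chosen with earlier results of these data known. All 9 genes are named, with up to 4 called genes per list by P, or the gene with the smallest P, and defining cell type markers. Genes named outside this rule are marked in the text. The gene nearest in pattern to Fkbp5 is not reported here.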

Additional observations from a re-analysis of the deposited data

Results flagged for a closer look

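BLM 4 had 19002242 counts in all, while BLM 1 to BLM 3 had 18436336 to 18452895. The distance from BLM 4 to the next library made up 0.971 of the spread of the 4 totals, past the 95% limit of Dixon's test. None of the 9 genes passed that limit in log2 CPM within BLM, with Ddit4 closest to it at 0.673. By chance about 1 in 20 such groups passes. The test was run within BLM alone. The largest library was BLM+HBO 3, with 26365969 counts, against 18157161 in BLM+HBO 1 and 20632391 in BLM+HBO 2.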

How the results depend on the processing

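The number of the 9 genes called, 1 in the report, was 0 with DESeq2, robust empirical Bayes, a P limit of 0.01, a fold change above 2 or an adjusted P below 0.05 by edgeR, and 2 with upper-quartile normalization or no filter on low counts. It ranged from 0 to 2 with each mouse left out. The genes called were Zbtb16 alone without BLM 1, Zbtb16 and Ddit4 without BLM+HBO 1, Tsc22d3 alone without BLM+HBO 3, and none without BLM 2. The direction reversed for Tsc22d3 (-0.062) and Nr3c1 (-0.059) without BLM+HBO 1, for Errfi1 without BLM+HBO 2 (0.025) or BLM+HBO 3 (0.12), and for Hsd11b1 without BLM 3 (-0.076) or BLM+HBO 2 (-0.001). None of these values passed the test. With a mouse left out, the values ranged from -0.062 to 0.724 for Tsc22d3, -0.518 to 0.12 for Errfi1, -0.059 to 0.259 for Nr3c1 and -0.076 to 0.095 for Hsd11b1. Without the filter on low counts, Fkbp5 had an edgeR adjusted P of 0.0319, at nearly the same log2FC (-1.003). The fall in P was not particular to Fkbp5. The unadjusted edgeR P went from 0.052 to 0.00107 for Zbtb16 and from 0.162 to 0.0343 for Tsc22d3. How many of all genes passed after adjustment in that fit was not counted. Fkbp5, Zbtb16, Sgk1, Klf9 and Ddit4 kept their direction under all alternatives run. Over all genes, the 1098 calls became 1940 without the filter, which tests more genes, 1861 with no limit on the fold, 319 at P below 0.01, 509 at a fold above 2 and 0 after edgeR's adjustment, where 1861 had an unadjusted P below 0.05 and DESeq2 called 123. With each mouse left out they ranged from 659 without BLM+HBO 1 to 1914 without BLM+HBO 2, and were 706 without BLM 1. Of the related lists, with 22 genes called in the report, 8 were called at P below 0.01, 11 at a fold above 2 and 0 after adjustment, and leaving out a mouse gave 11 to 34. With the replicate block, which the numbers of the mice do not support as a pairing, 1 of the 9 genes was called, Fkbp5, with 19 genes of the related lists and 1258 over all genes. The cause of these shifts was not tested. With 4 and 3 mice, the intervals of 8 of the 9 genes included 0, so a change in them was not detectable rather than absent.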

Other observations

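Other stress programs that share targets with the 9 genes were also measured. Of 10 hypoxia targets, which overlap in control with Ddit4, none was called, and the median log2 fold change was -0.31, with 8 below 0. Without BLM+HBO 2, 5 of the 10 were called lower. Slc2a1, the glucose transporter GLUT1, had the smallest P (log2FC -0.40 ± 0.19, edgeR adjusted P = 0.4996). Of 8 targets of ATF4, the transcription factor of the integrated stress response, none was called (median -0.15), and Cebpg had the smallest P (log2FC 0.23 ± 0.12, edgeR adjusted P = 0.516).

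Of 10 immediate-early genes, which rise within minutes of a stimulus such as handling, 1 was called higher and 1 lower (median -0.18). These were 10% each, against 3.4% higher and 2.89% lower over all genes. Nr4a1, a nuclear receptor gene, had 39.3, 36.9, 57.7 and 134 CPM in BLM and 184, 73.2 and 155 CPM in BLM+HBO, with a log2FC of 1.04 ± 0.46 (edgeR adjusted P = 0.467). Egr2 moved the other way (log2FC -0.65 ± 0.26, edgeR adjusted P = 0.441), and the groups overlapped for both genes. No gene of this list was called without BLM 1, BLM+HBO 1 or BLM+HBO 3.

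Relatives of the 9 genes were set beside them. Among 7 TSC22 and FKBP relatives, 1 was called lower (14.3%, against 2.89% of all genes). This was Fkbp10, a collagen chaperone (log2FC -0.71 ± 0.24, edgeR adjusted P = 0.423). Among 8 tested relatives of Sgk1, Klf9, Ddit4 and Zbtb16, 1 was called higher (12.5%, against 3.4% of all genes). This was Ddit4l, from 6.72 ± 1.28 CPM (SD, n = 4) to 10.2 ± 1.55 CPM (SD, n = 3). Its log2FC was 0.60 ± 0.21 (edgeR adjusted P = 0.423), with all BLM+HBO mice above all BLM mice. The paralog Ddit4 had a log2 fold change of -0.39. Neither list held a called gene without BLM+HBO 1 or without BLM+HBO 3. None of the genes in these paragraphs passed after adjustment.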
